A study of Mus musculus with 6 samples.

Results

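Cluster 7 is 1 of 14 clusters that the authors drew over all their cells and nuclei, and it was taken here as every row of their cell table that carries the cluster number 7. It holds 3581 of 51785 cells. No gene matrix was used and no marker genes were given for it, so it could not be set against markers and is called by its number. The cells are PB3, a mouse mammary tumour cell line, carrying lentiviral lineage barcodes. In run 1 untreated cells (UNT cells) and cells given eribulin 4 times (ERI4 cells) were captured in 1 library each, and in run 3 so were nuclei of the same 2 treatments (UNT nuclei, ERI4 nuclei). Run 2 had 1 library with ERI1, ERI2 and ERI3, cells after 1, 2 and 3 rounds of eribulin, and 1 with PAC1, PAC2 and PAC3, cells after 1, 2 and 3 rounds of paclitaxel, each condition marked by a hashtag oligo. A round of eribulin was 500 nM for 72 h followed by 48 h of recovery. The first round of paclitaxel was 100 nM for 72 h and later rounds were 250 nM. The recovery before PAC2's second round was 48 h, the labels name none after it, and they give no length for the last recovery of PAC1 and PAC3, so sampling times cannot be matched between the drugs. Run 2 has no untreated condition.

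Eribulin and paclitaxel both act on microtubules, the filaments that pull chromosomes apart at mitosis: eribulin caps growing microtubule ends, and paclitaxel holds microtubules assembled. Cells held in mitosis by such drugs can die, stay arrested or slip out of mitosis without dividing, and some of the survivors resume growth once the drug is gone. A lineage barcode is a short designed sequence integrated into a cell's genome and handed to all its daughters, so that cells with the same barcode descend from 1 marked cell. It is read apart from the genes that define a cluster, which makes it the measure used here that the clustering did not see.

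The barcodes on which the results below turn are printed first, 5′ to 3′, as the authors' lists hold them. Each has 48 bases: 14 bases (capitals), a joint of 4 bases that is the same in every listed barcode (lower case), and 30 bases (capitals). A barcode is named by the numbers of its 14-base and 30-base parts. The first is the barcode with the most cluster 7 cells in ERI2 and in PAC2, and the second the one with the most in ERI1.
bc14-76-bc30-49517: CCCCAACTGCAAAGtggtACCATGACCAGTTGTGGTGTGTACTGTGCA
bc14-6-bc30-93034: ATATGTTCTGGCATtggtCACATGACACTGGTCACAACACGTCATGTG
The next 2 were frequent in cluster 7 after eribulin, and the second of them was the barcode of at least 10 cells with the highest share in cluster 7 in PAC2.
bc14-39-bc30-41529: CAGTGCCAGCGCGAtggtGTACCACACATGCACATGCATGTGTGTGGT
bc14-74-bc30-34057: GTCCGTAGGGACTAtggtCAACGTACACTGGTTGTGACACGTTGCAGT
The next 2 share their 14-base part and were both frequent after eribulin.
bc14-55-bc30-37135: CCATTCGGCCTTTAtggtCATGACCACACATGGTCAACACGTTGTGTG
bc14-55-bc30-99383: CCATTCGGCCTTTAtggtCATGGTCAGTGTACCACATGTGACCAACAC
The last 2 lay mostly outside cluster 7, in cluster 9.
bc14-33-bc30-33994: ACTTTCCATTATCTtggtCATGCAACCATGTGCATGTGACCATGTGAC
bc14-29-bc30-33048: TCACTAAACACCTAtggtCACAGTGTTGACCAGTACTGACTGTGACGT
The 8 barcodes differ from each other at 22 to 37 positions, and the 2 that share a 14-base part differ at 22. Any 2 of the 185 barcodes in the list made for run 2 differ at 10 positions or more, so a few misread bases do not turn one of these names into another.

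Cluster 7 was made up almost wholly of run 2 cells, most of them from the first 2 rounds of eribulin. Run 2 gave 3416 of its cells (95.4%), and ERI1, ERI2 and PAC2 together gave 3128 (87.3%). In ERI1, 1691 of 1865 cells were in cluster 7, a share of 90.7% (exact 95% interval 89.3 to 92.0). In ERI2 it was 1103 of 1257 cells, 87.7% (85.8 to 89.5). After the third round of eribulin 102 of 3076 cells were in it, 3.32% (2.71 to 4.01).

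Under paclitaxel the share was highest in the second round. It was 160 of 2928 cells in PAC1, 5.46% (4.67 to 6.35), 334 of 848 in PAC2, 39.4% (36.1 to 42.8), and 26 of 2792 in PAC3, 0.931% (0.609 to 1.36). Among the conditions of other runs, cluster 7 held 5 of 11061 UNT cells, 20 of 9331 ERI4 cells, 30 of 9916 UNT nuclei and 110 of 8711 ERI4 nuclei, the last being 1.26% (1.04 to 1.52). Cluster 7 was therefore the bulk of 2 eribulin conditions, a large minority of 1 paclitaxel condition and rare elsewhere. Every condition was measured once, so no test was made. The intervals cover counting error only, and differences between conditions have not been set against the spread between cultures.

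**Figure D1:**
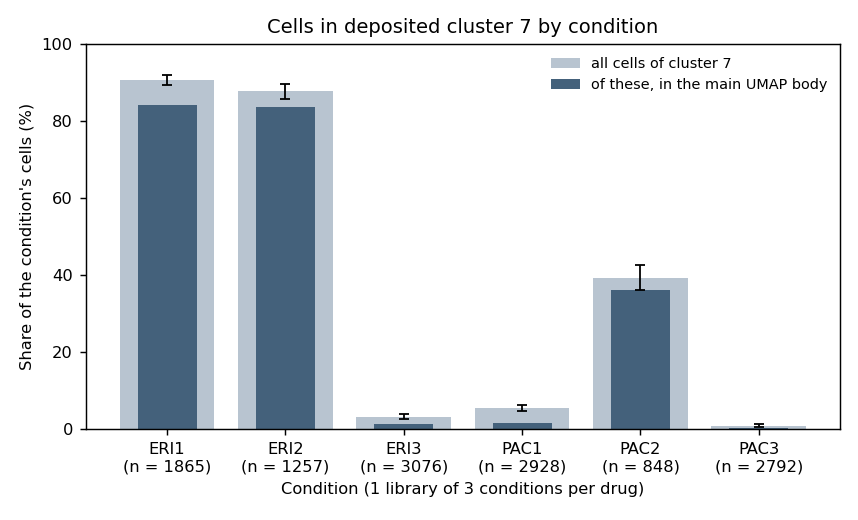
Share of each run 2 condition's cells in cluster 7 (light bars, with exact 95% intervals) and the part of it in the main body of the cluster on the UMAP (dark bars). ERI1 and ERI2 stand at 90.7% and 87.7%, PAC2 at 39.4%, and ERI3, PAC1 and PAC3 at 5.46% or below.

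On the UMAP, a map that places cells with like expression side by side, most of cluster 7 formed 1 compact body. That body was taken as the cells for which over 50% of the 30 nearest cells were also of cluster 7, and it held 3034 of the 3581 cells. It contained 92.7% (91.4 to 93.9) of the cluster 7 cells of ERI1, 95.4% (93.97 to 96.5) of those of ERI2 and 91.9% (88.5 to 94.6) of those of PAC2. The other run 2 conditions had cluster 7 cells scattered at its edge and among other clusters: the body held 43.1% (33.4 to 53.3) of them in ERI3, 28.1% (21.3 to 35.8) in PAC1 and 46.2% (26.6 to 66.6) in PAC3. Among the 115 PAC1 cells outside it, the neighbours were most often of cluster 6 (29.9%), and among the 58 ERI3 cells outside it of cluster 2 (32.5%).

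Counted in the body alone, the share of the condition's cells was 84.1% in ERI1, 83.7% in ERI2, 36.2% in PAC2, 1.54% in PAC1, 1.43% in ERI3 and 0.430% in PAC3. The order of the conditions by share was the same, with PAC1 and ERI3 now side by side. The body held 0 of the 110 ERI4 nuclei of cluster 7, which allows up to 2.73%, and 0 of the 30 UNT nuclei, which allows up to 10.0%. The cluster 7 label on nuclei thus sits at another place of the map than the label on cells, and the nuclei are not described further. Clusters and UMAP were made from the same genes, so nearness on the map is no independent evidence that the cluster is 1 state.

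**Figure D2:**
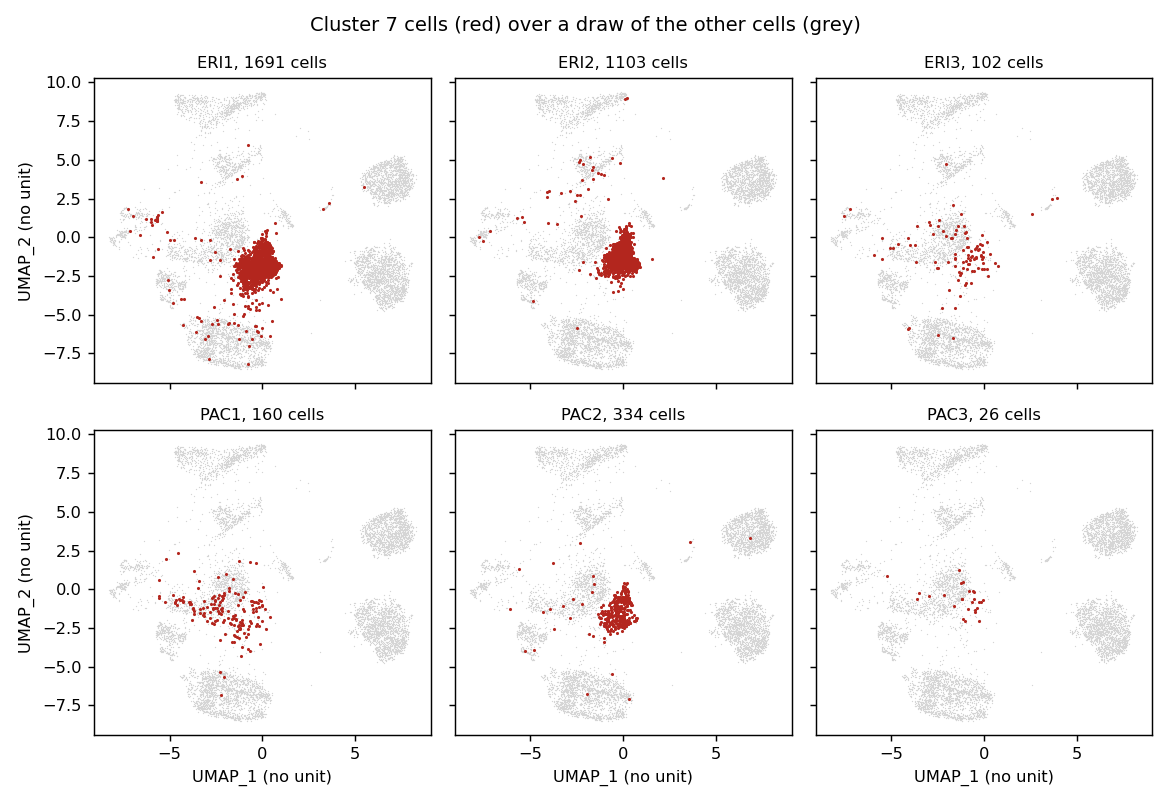
UMAP positions (both axes without unit) of the cluster 7 cells of each run 2 condition in red, over a draw of 8000 cells of other clusters in grey. ERI1, ERI2 and PAC2 fill the same body, while most of the 102 ERI3 and 160 PAC1 cells lie around it.

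Within the body the 2 drugs overlapped. When 848 cells were drawn from each condition, so that each was equally represented, the 30 nearest neighbours of a PAC2 cluster 7 cell were on average 35.8% ERI1 cells, 36.4% ERI2 cells and 19.9% PAC2 cells. For ERI1 cluster 7 cells they were 46.2% ERI1, 29.5% ERI2 and 17.2% PAC2. For ERI2 they were 46.3% ERI2, 30.4% ERI1 and 17.9% PAC2. PAC2 cells thus lay among eribulin cells. The draws held on average 767.9 ERI1, 743.55 ERI2 and 334 PAC2 cells of cluster 7, which bounds how often PAC2 can be its own neighbour. The shares partly follow these numbers, so they do not show that PAC2 cells kept together less than ERI1 or ERI2 cells. PAC1 and ERI3 cells made up 2.09% and 1.64% of the neighbours of ERI1 cells and 1.09% and 1.72% of those of ERI2 cells. They were also few in the draws, with 46.9 and 29.8 cluster 7 cells on average.

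Cluster 7 cells of ERI2 and PAC2 carried more RNA molecules (UMIs) than the other cells of their own condition. The median was 17424 UMIs (95% interval 17016 to 18193) in ERI1 against 15226.5 (11424 to 17350) in the other ERI1 cells, 18147 (17257 to 18914) in ERI2 against 11599 (9791 to 13924), and 21086 (19755 to 22370) in PAC2 against 14387.5 (13451 to 15017). In ERI1 the intervals overlap. In PAC1 it was 10929 (9799 to 11645) against 11731.5, and in ERI3 14643 (12591 to 18487) against 11191.5. Hashtag counts were not higher with it: the PAC2 median was 454 in cluster 7 and 495 outside, and the ERI2 median 573 and 591.5.

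The share of PAC2 in cluster 7 rose with depth. Over 4 depth bins, each with an equal number of the cells of the 3 main conditions, it was 23.0% (17.8 to 29.0) up to 11946.5 UMIs, 28.3% (22.2 to 35.0) up to 17218.5, 51.2% (44.1 to 58.3) up to 25169.5 and 56.6% (49.6 to 63.4) above. In ERI1 the bins gave 83.0%, 95.1%, 94.3% and 90.1%, and in ERI2 74.2%, 90.8%, 96.4% and 88.8%. In ERI3 the share rose from 2.14% (1.51 to 2.94) in the shallowest bin to 16.8% (11.0 to 24.1) in the deepest. PAC1 stayed between 3.74% and 7.24%. In both ERI1 and ERI2, then, most cells at every depth were in cluster 7, whereas in PAC2 the share depended on the depth at which it was read. More RNA per cell, deeper capture and doublets each raise UMIs per cell, and their part in this was not tested. In a UMI window common to the run 2 conditions (8785.2 to 19690.5 UMIs) the PAC2 share was 33.6% and the ERI3 share 1.93%.

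Doublets, droplets with more than 1 cell, were followed through the deposited barcode calls. In cluster 7, 9.70% (8.33 to 11.2) of ERI1 cells, 13.6% (11.6 to 15.8) of ERI2 cells and 18.3% (14.3 to 22.8) of PAC2 cells were called Doublet or Multiplet. Outside it the shares were 6.32% (3.20 to 11.0), 7.14% (3.62 to 12.4) and 9.14% (6.80 to 11.97). In ERI3 24.5% (16.5 to 34.0) of the 102 cluster 7 cells and 1.82% (1.37 to 2.36) of the other cells carried such a call. Within ERI3, the 44 cells in the main body had a median of 22330.5 UMIs, and 72.7% (57.2 to 85.0) of them had 2 or more detected barcodes. The 58 outside it had 11775 UMIs and 37.9% (25.5 to 51.6). The ERI3 cells that lay in the body were thus deep and mostly held several barcodes, against 9.92% of the ERI3 cells outside cluster 7. ERI1, ERI2 and ERI3 share a library, and hashtag doublets are not marked in the deposited table. The part of doublets in the ERI3 share was not tested. Counting only cells with exactly 1 detected barcode, the ERI3 share was 2.00%, and the shares of ERI1, PAC1, PAC2 and PAC3 moved by less than their intervals.

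Phase was set from the deposited S and G2M scores, which sum genes of DNA synthesis and of G2 and mitosis: a cell with neither score above 0 counts as G1, and any other cell takes the phase of its higher score. Cluster 7 held all 3 phases in similar proportions in both eribulin conditions. In ERI1, 31.2% (29.0 to 33.4) of its cells were G1, 25.9% (23.8 to 28.1) S and 42.9% (40.6 to 45.3) G2M. In ERI2 the shares were 32.8% (30.1 to 35.7), 24.7% (22.1 to 27.3) and 42.5% (39.6 to 45.5). In PAC2 they were 39.5% (34.2 to 45.0), 22.5% (18.1 to 27.3) and 38.0% (32.8 to 43.5), so the G1 intervals of PAC2 and ERI1 do not overlap and those of S and G2M do. At a score threshold of 0.05 the G1 shares were 44.01% (38.6 to 49.5) in PAC2 and 40.6% (38.3 to 43.0) in ERI1, which overlap.

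The 160 PAC1 cells of cluster 7 had a different make-up. There 46.2% (38.3 to 54.3) were G1 and 27.5% (20.7 to 35.1) G2M, while the other PAC1 cells were 36.7% G1 (34.9 to 38.5) and 39.7% G2M (37.9 to 41.6). PAC2 did not show that contrast, with 39.5% G1 in cluster 7 and 39.7% (35.4 to 44.1) outside. G2M cells were the deepest in each of the main conditions, with medians of 19209, 20217 and 23519 UMIs in ERI1, ERI2 and PAC2 against 16051, 15608 and 19370.5 in G1. The scores place a cell by its RNA and not by whether it divides, and the share of each phase moves with the score at which it is set, so no rate of division is read from them.

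The mitochondrial share of UMIs, which rises when cytoplasmic RNA is lost or mitochondrial transcripts increase, differed between the conditions inside cluster 7. The median was 3.05% (3.00 to 3.11) in ERI1, 3.85% (3.72 to 3.92) in ERI2 and 3.33% (3.17 to 3.54) in PAC2. PAC1 was at 3.32% (3.06 to 3.53) and ERI3 at 3.61% (3.31 to 3.83). ERI2 stood above ERI1 within each phase, at 4.01% and 3.27% in G1, 3.89% and 3.00% in S, and 3.597% and 3.00% in G2M. In these 5 conditions the cluster 7 median was above that of the condition's other cells, which was 2.79% (2.47 to 3.22) in ERI1, 3.41% (3.09 to 4.05) in ERI2, 2.70% (2.59 to 2.79) in PAC2, 2.86% (2.83 to 2.90) in PAC1 and 2.96% (2.93 to 3.00) in ERI3. In ERI1 and ERI2 the intervals of cluster 7 and of the other cells overlap.

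The tail of high mitochondrial shares lay outside the cluster. Over 10% of UMIs were mitochondrial in 7 of 1691 ERI1 cells of cluster 7, 0.414% (0.167 to 0.851), against 36 of the 174 other ERI1 cells, 20.7% (14.9 to 27.5). In ERI2 the counts were 6 of 1103, 0.544% (0.1999 to 1.18), against 44 of 154, 28.6% (21.6 to 36.4). In PAC2 they were 2 of 334, 0.599% (0.0726 to 2.15), against 39 of 514, 7.59% (5.45 to 10.2). The ERI1 and ERI2 cells outside cluster 7 thus include many with very high mitochondrial shares. No cluster 7 cell fell outside the stated limits on genes and mitochondrial UMIs.

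Pseudotime, a path length through expression space counted from the untreated cells, had close medians in the main conditions of cluster 7. The median was 13.59 (13.56 to 13.59) in ERI1, 13.73 (13.59 to 13.73) in ERI2 and 13.79 (13.73 to 13.92) in PAC2, and the scale has no unit. The other cells of the same conditions had medians of 14.65, 19.60 and 23.88. From the 10th to the 90th percentile it ran from 12.23 to 14.65 in ERI1, from 12.97 to 16.62 in ERI2 and from 13.29 to 16.62 in PAC2, and single cells reached 20.75 in ERI1 and 23.88 in ERI2 and PAC2. From the median upward the conditions differed more: 20.2% (18.3 to 22.2) of ERI1 cells, 35.4% (32.5 to 38.3) of ERI2 cells and 42.5% (37.2 to 48.0) of PAC2 cells of cluster 7 had a pseudotime above 14. Many cells share a value, since the method projects cells onto a graph. To 3 decimals, 497 cluster 7 cells stood at 13.593, 266 at 14.651 and 253 at 13.733, together 28.4% of the cluster, which is why the intervals of the medians are so narrow. Pseudotime rests on the same genes as the clusters, so the difference from other clusters is a description.

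The body was not uniform. Cells were split along the second UMAP axis into a lower, a middle and an upper layer that each hold the same number of body cells of the 3 main conditions. ERI1 cells lay low and ERI2 cells high: the lower layer held 47.3% (44.8 to 49.8) of ERI1 and 13.4% (11.4 to 15.6) of ERI2 body cells, and the upper layer 18.6% (16.7 to 20.6) and 52.2% (49.1 to 55.2). PAC2 had 30.3% (25.2 to 35.8) in the lower and 43.97% (38.3 to 49.7) in the upper layer, and so resembled neither.

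From the lower to the upper layer, G2M gave way to G1 in each of the 3 conditions. G2M cells made up 59.4% of the lower and 15.4% of the upper layer in ERI1, 71.6% and 31.3% in ERI2, and 60.2% and 23.0% in PAC2. G1 cells rose from 14.2% to 70.2%, from 9.22% to 44.6% and from 10.8% to 63.0%. The median mitochondrial share rose too, from 2.73% to 3.65% in ERI1, from 2.70% to 4.21% in ERI2 and from 2.81% to 4.05% in PAC2. Depth did not follow that order, with upper-layer medians of 18325, 18369 and 20255 UMIs against 17960.5, 16667 and 23106 in the lower layer.

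Although ERI2 sits mostly in the layer that is richest in G1, its overall phase shares did not differ from those of ERI1 beyond counting error, and in every layer ERI2 had more G2M and fewer G1 cells than ERI1. In the upper layer G1 was 44.6% (40.4 to 48.9) in ERI2 and 70.2% (64.6 to 75.4) in ERI1. In the middle layer it was 21.0% (16.9 to 25.6) and 30.9% (27.0 to 35.0). In the lower layer the intervals overlap, at 9.22% (5.00 to 15.3) and 14.2% (11.7 to 16.9). Over single cells the rank correlation (Spearman) of the second UMAP axis with the G2M score was -0.41 in 1691 ERI1 cells, -0.38 in 1103 ERI2 cells and -0.45 in 334 PAC2 cells. That of pseudotime with the mitochondrial share was 0.27, 0.34 and 0.31. The points share a library and the same genes, so these values describe the cluster and carry no p.

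**Figure D3:**
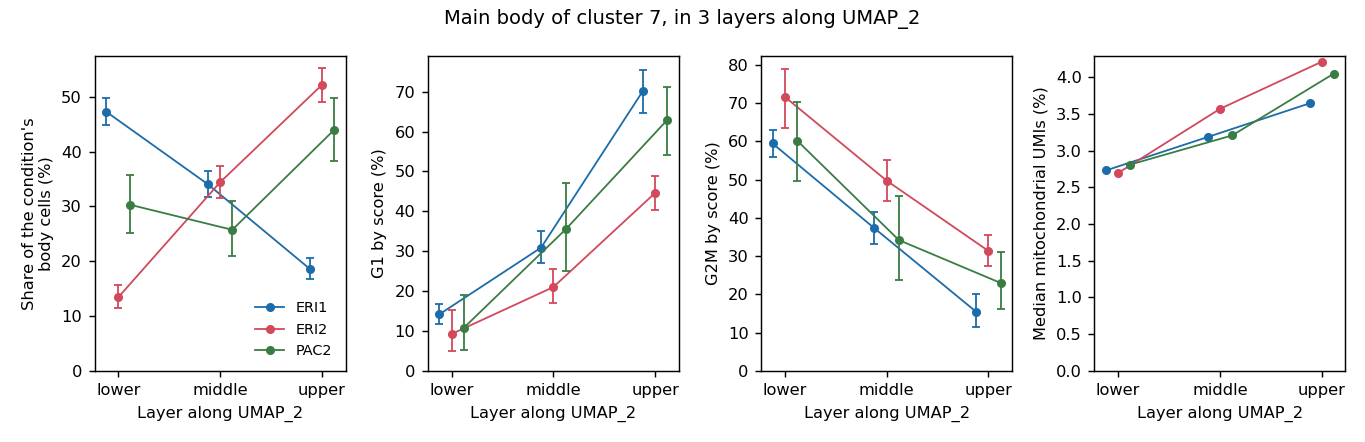
Main body of cluster 7 in 3 layers along UMAP_2: from left to right, the share of each condition's body cells in a layer, the G1 and the G2M share within it (all in %, with exact 95% intervals) and the median mitochondrial share (%). ERI1 falls from 47.3% in the lower to 18.6% in the upper layer and ERI2 rises from 13.4% to 52.2%, while G1 rises and G2M falls in all 3 conditions.

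The lineages in cluster 7 were many after the first round of eribulin and fewer after the second. A cell counts as barcoded where the authors' latest call gives it 1 barcode. In cluster 7 these were 1247 ERI1 cells with 125 different barcodes, 799 ERI2 cells with 55, and 216 PAC2 cells with 56. In a draw of 216 cells, 69.6 different barcodes would be met on average in ERI1 and 30.9 in ERI2. The 5 most frequent barcodes held 30.4% of the barcoded cluster 7 cells in ERI1, 65.7% in ERI2 and 58.8% in PAC2. Over all barcoded cells of a condition the top 5 held 30.01% in ERI1, 63.8% in ERI2 and 46.2% in PAC2, so cluster 7 was close to its condition in the eribulin rounds and less even than it in PAC2.

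The barcodes called in the libraries of the 2 drugs were not alike. All 149 barcodes called in ERI1, ERI2 and ERI3 are among the 185 of the run 2 list, but only 80 of the 162 called in PAC1, PAC2 and PAC3 are. A barcode outside that list has no cell in any of those eribulin conditions. Absence of such lineages and a limit on what was called there cannot be told apart. Comparisons across drugs below therefore use listed barcodes only, unless all called barcodes are named. In PAC2, 87.5% (82.3 to 91.6) of the barcoded cells in cluster 7 carried a listed barcode, and 36 of the 56 barcodes are listed.

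In ERI1 the leading barcodes of cluster 7 were bc14-6-bc30-93034 with 94 cells, 7.54% (6.13 to 9.15) of the barcoded ones, bc14-21-bc30-28628 with 93, bc14-39-bc30-41529 with 81, bc14-55-bc30-99383 with 59 and bc14-69-bc30-89668 with 52. In ERI2 they were bc14-76-bc30-49517 with 216 cells, 27.0% (24.0 to 30.3), bc14-22-bc30-18173 with 117, bc14-55-bc30-37135 with 80, bc14-74-bc30-34057 with 58 and bc14-39-bc30-41529 with 54. Only bc14-39-bc30-41529 was among the leading 5 of both. PAC2 was led by bc14-76-bc30-49517 with 73 cells, 33.8% (27.5 to 40.5), followed by bc14-6-bc30-93034 with 22, bc14-74-bc30-34057 with 16, bc14-36-bc30-56638 with 9, and bc14-69-bc30-89668 and bc14-18-bc30-28871 with 7 each.

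Most lineages of cluster 7 in ERI2 and in PAC2 were also in cluster 7 in ERI1. Of the 125 barcodes of ERI1 and the 55 of ERI2, 45 were shared, 36.0% of the first list and 81.8% of the second. They covered 62.5% (59.7 to 65.2) of the barcoded cluster 7 cells of ERI1 and 96.2% (94.7 to 97.5) of those of ERI2. The ERI1 cells outside cluster 7 carried a barcode of the ERI2 list about as often, 64.2% (54.5 to 73.2). On the ERI1 side this overlap is thus not particular to cluster 7. A barcode of ERI1's cluster 7 was carried by 94.6% (92.8 to 96.0) of all barcoded ERI2 cells, those of cluster 7 included. With PAC2, ERI1 shared 32 listed barcodes, 25.6% of its own and 88.9% of the 36 of PAC2, and these covered 97.9% (94.7 to 99.4) of the PAC2 cells. ERI2 and PAC2 shared 16, 29.1% of ERI2's and 44.4% of PAC2's. A listed barcode of PAC2's cluster 7 was carried by 55.8% (53.0 to 58.6) of ERI1 cells in cluster 7 and 49.5% (39.8 to 59.3) outside it. In ERI2 the shares were 63.2% (59.8 to 66.6) and 67.5% (56.3 to 77.4). The overlaps with PAC2 are thus not particular to cluster 7 of the eribulin conditions either. On the PAC2 side, a barcode of ERI1's cluster 7 was more frequent in cluster 7. The 97.9% there stands against 91.4% (87.9 to 94.2) of all PAC2 cells with a listed barcode. For barcodes of ERI2's cluster 7 the values were 78.3% (71.7 to 84.0) and 68.8% (63.6 to 73.8), and these intervals overlap.

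The larger lineages of ERI1 had most of their cells in cluster 7, as 90.7% of all ERI1 cells did. Of its 132 barcodes 30 had at least 10 cells, and all 30 had cluster 7 as their main cluster. In ERI2 it was 13 of 14, and in PAC2 5 of 14. The counts for paclitaxel take all called barcodes. Of the other 9 in PAC2, 7 are not in the run 2 list, so the PAC2 count is not like those for eribulin. In the other run 2 conditions it was 0 of 12 barcodes in ERI3, 0 of 47 in PAC1 and 0 of 14 in PAC3. Among the UNT cells, the 110 barcodes that were seen in cluster 7 of ERI1 had 2740 cells. Of these 1 was in cluster 7 and 1462 in cluster 1, 53.4% (51.5 to 55.2). The 46 other listed barcodes had 485 UNT cells. Of those 0 were in cluster 7 (exact upper limit 0.758%) and 192 in cluster 1, 39.6% (35.2 to 44.1). The UNT cells come from another run.

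The same lineages could be followed across drugs and rounds. Of the listed barcodes with at least 10 cells in both ERI1 and PAC1, 15 in all, 92.3% of the 686 ERI1 cells and 8.66% of the 785 PAC1 cells were in cluster 7. All 15 had the higher share in ERI1, where the lowest was 77.4%, while the highest in PAC1 was 20.0%. Weighting the PAC1 lineages by their size in ERI1 gave 9.22%. The gap between the first rounds of the drugs was thus about as wide within these lineages as over all cells.

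Between the rounds of paclitaxel, where all called barcodes were used, lineages differed. For 12 barcodes with at least 10 cells in PAC1 and PAC2, 6.34% of 836 cells were in cluster 7 in PAC1 and 36.2% of 362 in PAC2, and 41.6% with the PAC2 lineages weighted as in PAC1. The share was higher in PAC2 for 8 of them, and 4 had no cell in cluster 7 in either. In PAC2 5 of the 12 had 56.4% or more of their cells in cluster 7, and the others 4.88% or less. With the 7 listed barcodes alone the PAC2 share was 51.8% of 247 cells, and in the common UMI window that of all called barcodes was 27.1% of 144. From PAC2 to PAC3, with 8 barcodes, the share went from 34.5% of 284 cells to 0.566% of 1944, lower in PAC3 for 4 and at 0 in both for the rest. From ERI1 to ERI2, with 9 barcodes, it was 93.4% of 440 and 93.2% of 660 cells, higher in ERI2 for 4 and in ERI1 for 4. From ERI2 to ERI3, again with 9 barcodes, it was 93.1% of 619 and 3.04% of 1774 cells, lower in ERI3 for each.

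The barcode bc14-76-bc30-49517 shows this course in the most cells. Its share in cluster 7 was 51 of 57 cells in ERI1, 89.5% (78.5 to 96.0), and 216 of 242 in ERI2, 89.3% (84.7 to 92.9). In ERI3 it was 11 of 839, 1.31% (0.656 to 2.33), and 780 of the 839 cells were in cluster 2. Under paclitaxel it was 15 of 164 cells in PAC1, 9.15% (5.21 to 14.6), 73 of 125 in PAC2, 58.4% (49.2 to 67.1), and 11 of 1118 in PAC3, 0.984% (0.492 to 1.75), with 1034 in cluster 2. Most of the lineage was thus in cluster 7 at rounds 1 and 2 of eribulin and at round 2 of paclitaxel, and in cluster 2 after the third round of either. In the common UMI window its PAC2 share was 48.3%.

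Other lineages with a high share in cluster 7 were in other clusters after the third round. Of bc14-6-bc30-93034, 94 of 104 cells were in cluster 7 in ERI1, 90.4% (83.0 to 95.3), and 17 of 554 in ERI3, 3.07% (1.80 to 4.87), where 497 were in cluster 8. In PAC2 22 of its 39 cells were in cluster 7, 56.4% (39.6 to 72.2), against 28 of 259 in PAC1, 10.8% (7.30 to 15.2). In PAC3 0 of its 165 cells were, where 3 cells would make 1.82% and the exact upper limit is 2.21%, and 99 cells were in cluster 8. Of bc14-39-bc30-41529, 81 of 86 cells were in cluster 7 in ERI1, 54 of 57 in ERI2 and 4 of 104 in ERI3, where 91 were in cluster 12. In ERI2, 12 of the 13 cells of bc14-6-bc30-93034 were in cluster 7. These lineages thus lay together in cluster 7 after 2 rounds of eribulin and mostly in different clusters after 3. Other lineages shared a main cluster in ERI3. Of the 12 barcodes with at least 10 ERI3 cells, 5 had cluster 2 as their main cluster and 2 had cluster 8. The rest each had a different main cluster. These 12 were not chosen by their place in ERI2.

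The barcode bc14-74-bc30-34057 differed most between PAC1 and PAC2. In PAC1 0 of its 28 cells were in cluster 7, which allows up to 10.7%, and in PAC2 16 of 18, 88.9% (65.3 to 98.6). It was also mostly in cluster 7 under eribulin, with 29 of 33 cells in ERI1 and 58 of 60 in ERI2, and it had 4 cells in ERI3. The barcodes bc14-55-bc30-37135 and bc14-55-bc30-99383 had 80 of 80 and 31 of 31 ERI2 cells in cluster 7, and 5 of 18 and 2 of 17 in ERI3.

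**Figure D4:**
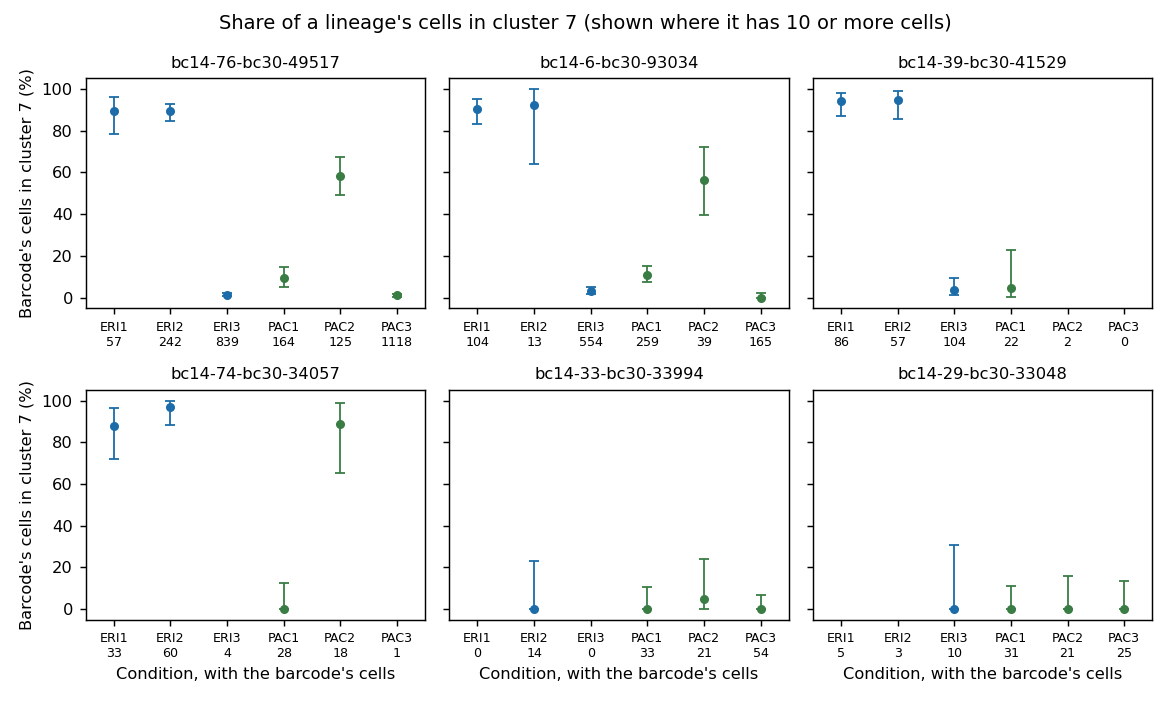
Share (%) of a barcode's cells in cluster 7 by condition, with exact 95% intervals, for 6 of the printed barcodes; eribulin in blue, paclitaxel in green, the number of cells under each condition, and no point below 10 cells. The barcodes of the upper panels and bc14-74-bc30-34057 are high in ERI1, ERI2 and, where measured, PAC2, and bc14-33-bc30-33994 and bc14-29-bc30-33048 stay at or near 0.

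Most PAC2 cells were in cluster 7 or cluster 9, and the larger lineages were unevenly divided between these clusters. It had 336 cells in cluster 9 and 334 in cluster 7. Of the 14 barcodes with at least 10 PAC2 cells, 5 had most of their cells in cluster 7 (127 of 205, with 3 in cluster 9) and 9 most of theirs in cluster 9 (169 of 188, with 4 in cluster 7). In cluster 9, 20.3% (15.4 to 26.0) of barcoded cells had a listed barcode, against 87.5% in cluster 7. Choosing lineages by their place in PAC2 fixes the counts of the 14 barcodes, but not where the same lineages lie in other conditions.

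Already in PAC1 the 2 sets lay apart. There, 53 of the 559 cells of the cluster 7 set were in cluster 7 and 12 in cluster 9, while of the 290 cells of the cluster 9 set 266 were in cluster 9 and 0 in cluster 7, which allows up to 1.03%. In PAC3, 651 of 673 cells of the cluster 9 set were in cluster 9 and 0 in cluster 7, which allows up to 0.446%. The cluster 9 set was thus mostly in 1 cluster in all 3 paclitaxel conditions, while the cluster 7 set was in cluster 7 mainly in round 2.

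Of the cluster 9 set 2 barcodes are listed and could be compared under eribulin, where they had 2 of 5 cells in cluster 7 in ERI1, 0 of 17 in ERI2, which allows up to 17.6%, and 0 of 10 in ERI3, which allows up to 30.0%. The barcode bc14-33-bc30-33994 had 14 ERI2 cells, all 14 in cluster 9, so its share of 0 in cluster 7 allows up to 21.4%. In PAC2 1 of its 21 cells was in cluster 7, 4.76% (0.120 to 23.8), and 19 were in cluster 9; with exactly 1 detected barcode, or in the common UMI window, none was in cluster 7. It was named after its values were seen. The barcode bc14-29-bc30-33048 had 0 of 21 PAC2 cells in cluster 7, which allows up to 14.3%, and 2 of 5 in ERI1. The remaining 7 barcodes are not in the run 2 list and had no cell called in ERI1, ERI2 or ERI3.

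Apart from lineage, PAC2 cells of the 2 clusters differed in depth and mitochondrial share. The median was 21086 UMIs in cluster 7 and 15229 (14509 to 16347) in cluster 9, and the mitochondrial share 3.33% and 2.55% (2.47 to 2.66). G1 made up 39.5% and 37.5% (32.3 to 42.9), S 22.5% and 15.8% (12.04 to 20.1), and G2M 38.0% and 46.7% (41.3 to 52.2), so the intervals of each phase overlap. Cells with 2 or more detected barcodes were about as frequent, 32.9% (27.9 to 38.3) and 37.2% (32.0 to 42.6). Fewer of the cluster 9 cells were called Doublet or Multiplet, 11.6% (8.39 to 15.5) against 18.3% (14.3 to 22.8), though these intervals overlap. Whether doublets had a part in the depth difference was not tested.

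Inside cluster 7, cells of 1 lineage tended to lie together on the map. Of the 30 nearest barcoded cluster 7 cells of the same condition, 6.53% carried the cell's own barcode in ERI1, where the share for cells placed without regard to barcode would be 3.02%. In ERI2 it was 21.5% against 12.2%, and in PAC2 16.9% against 13.8%. For bc14-76-bc30-49517, 23.1% of the neighbours of its 51 ERI1 cells were of the same barcode, which makes up 4.09% of the barcoded cells, and in ERI2 the values were 47.5% and 27.0%. For the 41 ERI1 cells of bc14-36-bc30-56638 they were 21.1% and 3.29%. The barcode bc14-22-bc30-18173 was near its base share, with 3.53% and 2.73% in ERI1 and 17.9% and 14.6% in ERI2.

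The cells of bc14-76-bc30-49517 also lay further along pseudotime and had a higher mitochondrial share than the rest of cluster 7. Their median pseudotime was 14.97 (14.70 to 16.62) in ERI1, 14.88 (14.65 to 15.58) in ERI2 and 14.65 (14.65 to 15.58) in PAC2, against 13.55, 13.59 and 13.75 for the other barcodes. Their mitochondrial share was 3.93% (3.53 to 4.39), 4.23% (3.99 to 4.53) and 4.24% (3.71 to 5.01), against 3.01%, 3.56% and 3.09%. In all 3 conditions the intervals of this lineage lie above the medians of the others. The lineages bc14-55-bc30-37135 and bc14-22-bc30-18173 lay at the other end in ERI2, with median pseudotimes of 13.12 (13.06 to 13.34) and 13.34 (13.32 to 13.34). Cluster 7 therefore contains lineages that differ in pseudotime in the same condition and library.

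ERI1 and ERI2 were closer without the cells called for bc14-76-bc30-49517. Cells with no single barcode call stay in these values, and some of them may belong to that lineage. Without bc14-76-bc30-49517 the share of ERI2 cells above pseudotime 14 was 23.0% (20.3 to 25.9) in place of 35.4%, and that of ERI1 18.4% (16.5 to 20.3) in place of 20.2%. The median mitochondrial share in ERI2 without it was 3.73% (3.57 to 3.85), still above the 3.04% (2.99 to 3.097) of ERI1. In PAC2 33.7% (28.0 to 39.8) of cells without it were above 14.

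Within the same lineages, ERI2 cells of cluster 7 had the higher median mitochondrial share in each of the 9 listed barcodes with at least 10 cluster 7 cells in both conditions. The difference from ERI1 was 0.33 percentage points in the median lineage and ranged from 0.153 to 1.55. For bc14-74-bc30-34057 the medians were 2.90% (2.41 to 3.45) in ERI1 and 3.58% (3.35 to 4.08) in ERI2, and for bc14-39-bc30-41529 they were 3.27% (3.13 to 3.64) and 3.42% (2.90 to 3.89), which overlap. With only cells in which exactly 1 barcode was detected, 7 lineages were left and 5 of them were higher in ERI2. Among G1 cells it was 3 of 5, among G2M cells 4 of 6, in the main body 7 of 8 and in the UMI window of cluster 7 (10302.7 to 32311.8 UMIs) 7 of 7, so the direction held in most but not all lineages in these subsets.

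Position on the map moved in most of these lineages as well. The median on the second UMAP axis was higher in ERI2 in 8 of 9, with bc14-76-bc30-49517 the exception at -0.65 in ERI1 and -0.85 in ERI2. Median pseudotime was higher in ERI2 in 6 and lower in 3. The G2M share was higher in ERI2 in 7 and lower in 1, and the S share higher in 2 and lower in 6. UMIs per cell were higher in 5 and lower in 4. Between the eribulin rounds most of these lineages thus differed in the same direction in position, mitochondrial share and G2M share. Depth went either way.

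**Figure D5:**
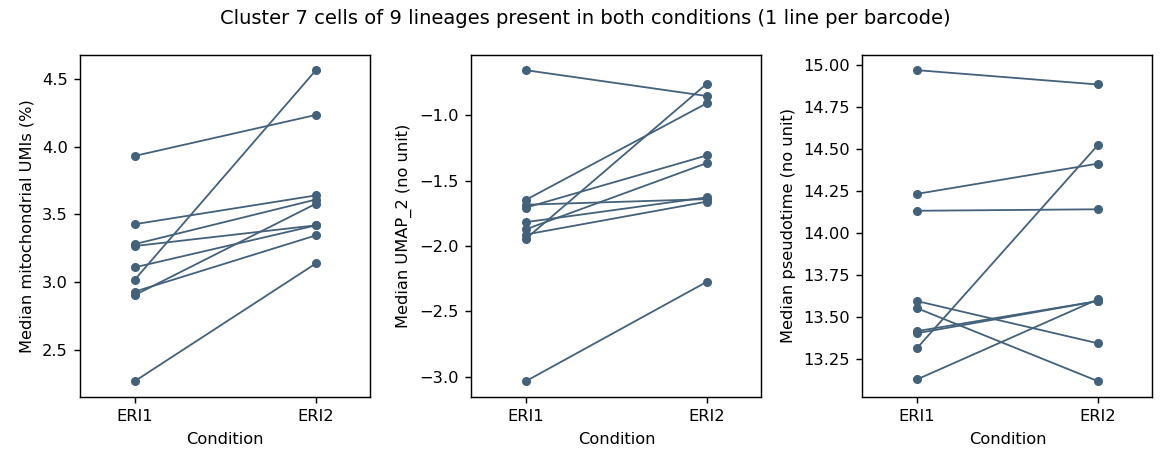
Medians of the cluster 7 cells of 9 lineages in ERI1 and ERI2, 1 line per barcode, for the mitochondrial share (%), the second UMAP axis and pseudotime (both without unit). All 9 lines rise in the first panel, 8 of 9 in the second and 6 of 9 in the third.

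Sharing of droplet barcodes between libraries was small. The eribulin and paclitaxel libraries of run 2 had 16 cell barcodes in common, carried by 7 cluster 7 cells, and the 2 libraries of nuclei 134, carried by 3.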

How the data were processed

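Single-cell RNA libraries were made with 10x Genomics 3' chemistry (runs 1 and 2) and single-nucleus libraries with the multiome kit (run 3), per the labels' protocols. Per the submitters' processing notes and the design text, the reference was mm10, run 1 was counted by Cell Ranger 3.1.0, run 2 by its version 4.0.0 and the nuclei by Cell Ranger ARC 1.0.0, Seurat 3.1.4 gave filtering, clusters and UMAP, and Monocle3 0.2.1 gave pseudotime, rooted in the untreated cells. Per those notes, cells were dropped below 200 genes or with over 50% of UMIs in mitochondrial or, taken separately, ribosomal genes. The cell table still holds cells beyond the gene and mitochondrial limits, and they were kept here. The ribosomal share was not used.

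The deposited counts are UMIs, genes, lineage barcode counts, detected barcodes and hashtag counts per cell, not normalized. The deposited percent is the share of a cell's UMIs in mitochondrial genes. The deposited score columns are S and G2M phase scores, pseudotime and UMAP coordinates, all without unit. Cluster numbers, condition names and barcode calls were used as deposited. No gene matrix, and so no thinning of cells to equal depth, was used. No doublet caller was run.

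Cells were grouped by the deposited condition name within the library the labels give. Each condition was measured once, in a library of its own (runs 1 and 3) or in 1 shared by 3 hashtagged conditions (run 2), and cells are not replicates, so no test was made. Shares carry exact Clopper-Pearson 95% intervals and medians exact binomial order-statistic 95% intervals. A share of 0 stands with the share that 3 cells would make, which for the counts given is below the upper limit of the exact interval. All of these cover counting error only, and intervals of medians are narrow where values are tied. Pseudotime was rounded to 4 decimals. Neighbours were the 30 nearest cells on the UMAP, averaged over 20 draws of 848 cells per condition. Median depth in the run 2 conditions is given beside the results it touches.

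The members, the barcodes and the comparisons were chosen with earlier results of these data known. The barcodes named were the 5 most frequent in cluster 7 of ERI1, of ERI2 and of PAC2 (ties kept) and, among PAC2 barcodes with at least 10 cells, those with the highest or the lowest share in cluster 7; the rule gives 17, and bc14-33-bc30-33994 was added after its values were seen. Alternatives tried were the stated filter, cells with exactly 1 detected barcode, a common UMI window (10th to 90th percentile), a score threshold of 0.05, 15 and 60 neighbours, all cells in place of equal draws, listed barcodes only, G1 cells only, the first revision of the barcode call, and only cells mostly among cluster 7 neighbours. The interval and neighbour code was tested on simulated data. Python 3.11.15, numpy 2.4.6, scipy 1.17.1, pandas 2.3.3 and matplotlib 3.10.9 were used.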

Additional observations from a re-analysis of the deposited data

Results flagged for a closer look

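Of 11 quantities compared between the first and the second round of each drug, 3 moved in opposite directions under eribulin and paclitaxel. With 1 library per drug, none of these differences was tested. The share of cells in cluster 7 fell by 2.92 percentage points from ERI1 to ERI2 and rose by 33.9 from PAC1 to PAC2. The G1 share of cluster 7 cells rose by 1.65 points under eribulin and fell by 6.73 under paclitaxel. The share of cluster 7 cells with 1 called barcode fell by 1.305 points under eribulin and rose by 3.42 under paclitaxel. Only the first of these exceeds the counting intervals of both conditions under paclitaxel, and under eribulin the intervals of ERI1 and ERI2 overlap for all 3.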

How the results depend on the processing

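For 42 results, 167 values were recomputed under the alternatives, of which 129 stayed within the counting interval of the reported value (or, for a count, within 1.5 times it) and 38 did not. No paired analysis was possible because each condition was measured once and no test was made. The share in cluster 7 became 93.5% in ERI1, 90.8% in ERI2, 1.93% in ERI3 and 33.6% in PAC2 in the common UMI window, 89.96% in ERI2 and 2.002% in ERI3 with exactly 1 detected barcode, and 90.1% in ERI2 within the stated filter. Counted in the main UMAP body, an alternative chosen after seeing the data, it was 84.1% in ERI1, 83.7% in ERI2, 1.43% in ERI3, 1.54% in PAC1 and 0.430% in PAC3. In cluster 7, a score threshold of 0.05 gave 40.6% G1, 20.6% S and 38.8% G2M in ERI1 and 39.9% G1 and 20.5% S in ERI2. The UMI window gave 27.5% G1 in ERI1 and 30.0% in ERI2 and a median pseudotime of 13.54 in ERI1. Exactly 1 detected barcode gave 28.2% S and a median of 16547 UMIs in ERI1, 16605 UMIs and pseudotime 13.74 in ERI2, and pseudotime 14.04 in PAC2. Over all cells in place of equal draws, the neighbours from a cell's own condition were 54.99% in ERI1, 41.6% in ERI2 and 11.7% in PAC2. The share of bc14-76-bc30-49517 among barcoded ERI2 cells of cluster 7 was 32.7% with exactly 1 detected barcode and 30.7% with the first revision of the call. The share of PAC2 cells with the barcodes of PAC1 was 27.1% in the UMI window and 51.8% with listed barcodes only, the latter also chosen after seeing the data. Of the lineages with a higher mitochondrial share in ERI2 than in ERI1, 5 were left of 7 with exactly 1 detected barcode, 3 of 5 among G1 cells and 4 of 6 among G2M cells, alternatives that were also chosen after seeing the data and that leave fewer lineages with 10 cells. The cause of the other changes was not tested. Depth limits what can be said of PAC2, whose share depends on it, and few cells limit ERI3, PAC1 and PAC3.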
